A study of Mus musculus with 18 samples.

Results

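The 10 genes Cd36, Lpl, Vldlr, Plin2, Cidec, Pnpla2, Pnpla3, Lipc, Mttp and Apob carry lipid into liver cells, hold it in droplets, break it down and send it out again. They were chosen by symbol from the 55536 Ensembl gene identifiers counted in each of 18 mouse livers, and all 10 had counts high enough to be tested. The livers came from female C57BL/6 mice dosed by gavage every 4 days for 92 days. Poly-A RNA was sequenced, with 3 mice in each of 6 groups and each library from 1 mouse.

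The treated livers had TCDD, a dioxin that binds and activates the transcription factor AHR, at 100 µg/kg, and the vehicle livers had peanut oil. Per the labels and the series' design, dHep TCDD and dHep vehicle livers lacked AHR in hepatocytes (AhRΔHep), and dHSC TCDD and dHSC vehicle livers lacked it in hepatic stellate cells (AhRΔHSC). WT TCDD and WT vehicle livers carried the floxed Ahr allele without deletion (AhRfl/fl). The Cre driver of either deletion is not given in the sources used here.

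The liver takes up fatty acids through the membrane protein CD36 and, where lipoprotein lipase and the VLDL receptor are made, from lipoproteins at the cell surface. Surplus triglyceride is stored in droplets coated by perilipin 2 and enlarged by CIDEC, and is released by droplet lipases. Export needs apolipoprotein B, which is loaded with lipid by the microsomal triglyceride transfer protein and secreted as VLDL, and hepatic lipase then acts on remnants and HDL outside the cell. TCDD is known to cause fatty liver in mice.

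Promoter windows are shown for Lipc, Cd36 and Pnpla3, the members with the largest log2 differences between WT TCDD and WT vehicle livers among those whose groups did not overlap. Each is the 250 bases before a transcription start in RefSeq (GRCm38.p6), 5′ to 3′ on the gene's strand. Capitals mark GCGTG on either strand, the core of the element that AHR binds. The Lipc window lies at chr9:70952222-70952471 on the minus strand, the Cd36 window at chr5:17835897-17836146 on the minus strand before 1 of several annotated starts, and the Pnpla3 window at chr15:84167566-84167815 on the plus strand.
Lipc: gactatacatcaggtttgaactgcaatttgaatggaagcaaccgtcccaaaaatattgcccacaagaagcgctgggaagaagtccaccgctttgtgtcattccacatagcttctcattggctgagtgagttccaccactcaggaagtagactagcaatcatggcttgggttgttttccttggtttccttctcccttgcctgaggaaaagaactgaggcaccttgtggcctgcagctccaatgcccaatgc
Cd36: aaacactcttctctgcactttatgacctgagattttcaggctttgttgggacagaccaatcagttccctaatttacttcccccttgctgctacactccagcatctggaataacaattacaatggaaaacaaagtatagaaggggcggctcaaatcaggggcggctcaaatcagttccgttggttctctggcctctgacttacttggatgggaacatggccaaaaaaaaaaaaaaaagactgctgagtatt
Pnpla3: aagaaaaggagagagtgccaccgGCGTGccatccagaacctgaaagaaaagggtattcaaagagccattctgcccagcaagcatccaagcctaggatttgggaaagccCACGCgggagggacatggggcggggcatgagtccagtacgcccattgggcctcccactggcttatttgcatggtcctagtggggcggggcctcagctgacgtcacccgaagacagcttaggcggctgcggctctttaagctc

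Pnpla3 held GCGTG in 2 places, at -227 to -223 on the gene's strand and at -142 to -138 on the opposite strand, counted from the start. No GCGTG was found in the windows of Lipc or Cd36. Of the 9 members with a window, 4 held the core: Pnpla3, Plin2, Mttp and Cidec. Across all genes with windows of the same length 30.85% held it. A match is only a run of letters, and its absence from the window says nothing of binding elsewhere.

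Counts per library summed to between 12706490 and 27240877. Ahr, the deleted gene, had 94.9, 60.8 and 29.0 CPM (counts scaled to library size after TMM normalization) in dHep TCDD livers and 58.3, 60.8 and 23.2 CPM in dHSC TCDD livers, against 56.6, 53.4 and 44.6 CPM in WT TCDD livers. With vehicle it had 56.8, 28.1 and 29.1 CPM in dHep, 45.5, 40.0 and 32.7 CPM in dHSC, and 32.7, 51.8 and 70.0 CPM in WT livers. The groups overlapped. The deleted part of the gene is not given, so this level checks no label. Cyp1a1, the usual AHR target, averaged 6430 ± 1690 CPM in WT TCDD and 15.4 ± 15.5 CPM in WT vehicle livers (SD, n = 3 each). It averaged 307.2 ± 25.4 CPM in dHep TCDD and 63.9 ± 33.2 CPM in dHep vehicle livers, and 4503 ± 1780 CPM in dHSC TCDD and 11.7 ± 7.33 CPM in dHSC vehicle livers. The 10 hepatocyte markers, none at 0 in any group, summed to between 54819 and 176899 CPM per library. On the first principal component 5 libraries lay away from the rest, called outlying below: dHep TCDD replicate 16, dHep vehicle replicates 9 and 15, dHSC TCDD replicate 18 and dHSC vehicle replicate 17. Their share of counts assigned to other than protein-coding genes was 2.20% to 4.25%, against at most 1.76% elsewhere. WT TCDD replicate 8, which held that 1.76%, lay between these 5 and the other libraries on the component, at 36.76. The 5 stood at 62.09 or more and the others at -11.77 or less. In dHSC TCDD replicate 18 mitochondrial genes also took 28.4% of counts, against 4.52% to 9.96% in the other libraries. WT vehicle replicate 1 also differed from its group, with 177.0 CPM summed over 10 adipocyte markers and 1833 CPM over 12 skeletal muscle markers, where no other library exceeded 14.5 and 3.46 CPM.

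Per kilobase of exon, with the exons of all annotated transcripts of a gene joined, levels of different genes can be compared only roughly. On this scale Apob was the most abundant member, with a mean of 337.4 CPM per kb over the 18 livers. Lipc had 116.8, Plin2 106.8 and Cd36 62.6 CPM per kb. Pnpla2 had 29.9, Mttp 27.3 and Lpl 10.1 CPM per kb, and Cidec, Vldlr and Pnpla3 had 3.22, 2.18 and 1.07 CPM per kb. Mttp and Pnpla3 are understated here, because 30.68% and 30.04% of their exon bases lie within the span of another gene and reads there appear to have been left uncounted. Pnpla3 varied the most between livers, with 167.1 times more CPM in the highest than in the lowest library, the lowest holding 1 count. Lpl varied 23.5-fold and Cidec 12.3-fold. Pnpla2 and Lipc varied the least, at 2.64-fold and 2.80-fold. Within groups the SD of log2 CPM ran from 0.17 for Lipc to 1.19 for Lpl.

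**Figure D1:**
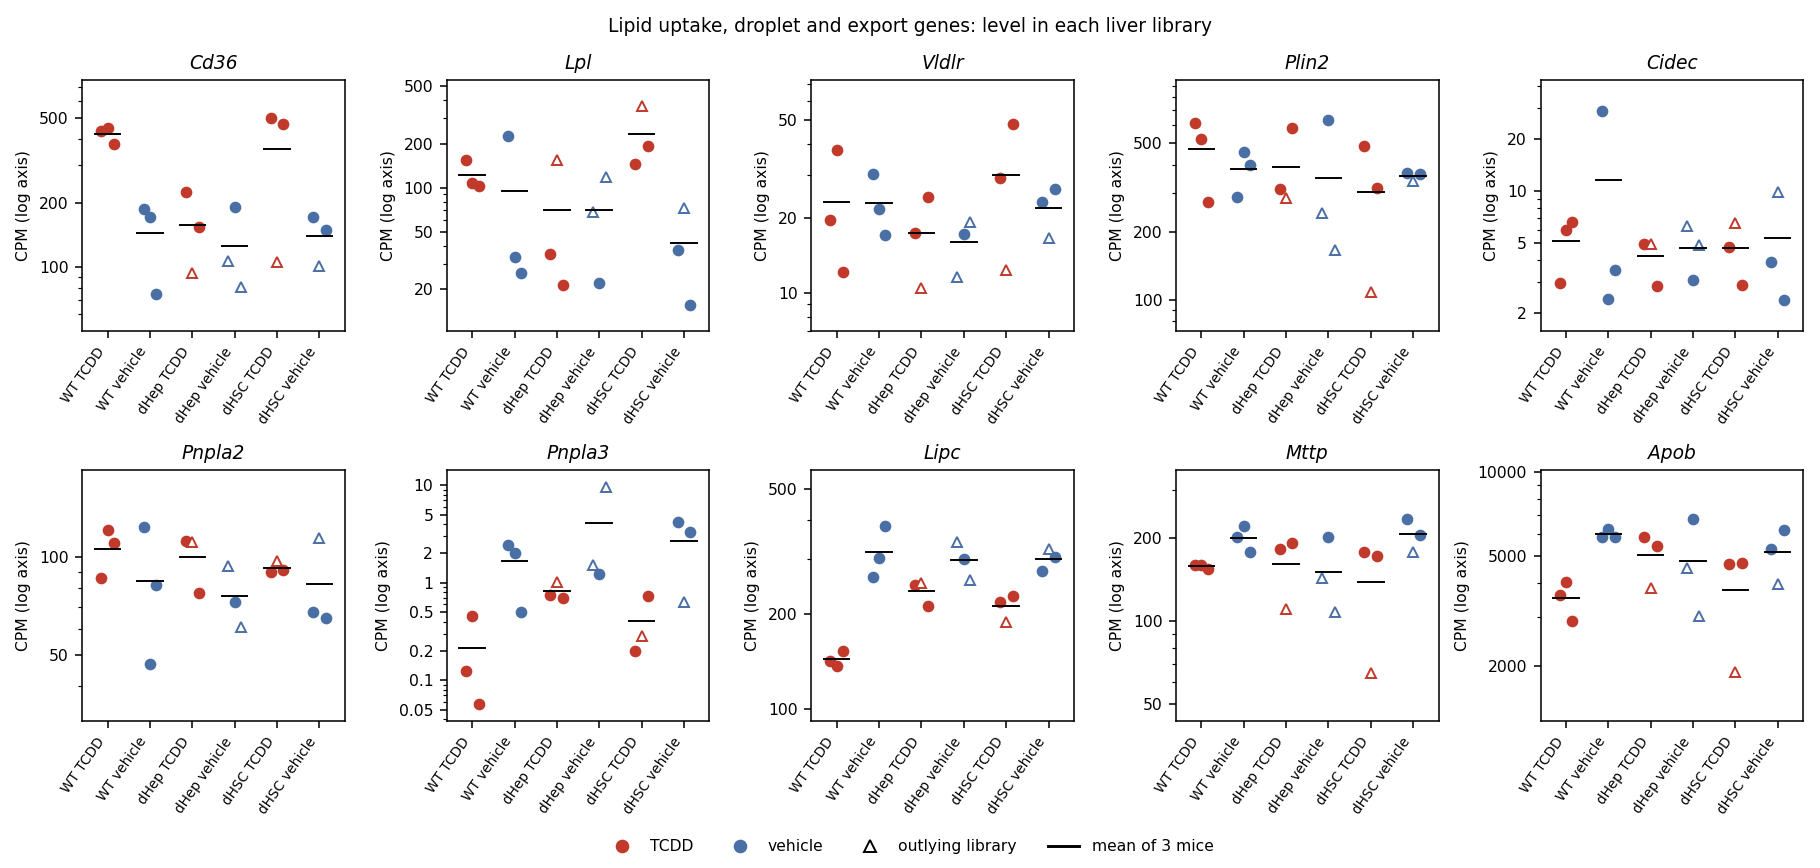
CPM of each of the 10 genes on a log axis in every liver, by group, with TCDD in red and vehicle in blue. Bars are the means of 3 mice and open triangles the 5 outlying libraries. Lipc lies lower in WT TCDD livers (136.7 to 153.0 CPM) than in any other group, and Cd36 reaches 377.5 CPM or more in all 3 WT TCDD livers and 2 of 3 dHSC TCDD livers.

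Under TCDD the WT livers had a lower level of the plasma lipase Lipc, the 1 member of 10 that passed the test (adjusted p under 0.05), and a mean Cd36 level near 3 times that of vehicle that did not pass over all genes. Across all 14835 genes tested 5.38% were called in WT, 3.43% higher and 1.95% lower. The groups did not overlap for 5 members: Cd36 above vehicle, and Lipc, Pnpla3, Apob and Mttp below it. Among all genes tested 24.8% did not overlap, 13.4% above and 11.4% below. The median log2 difference of the 10 members was -0.17, against -0.015 over all genes tested.

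In dHep livers 0 members were called by edgeR (1 at an unadjusted p under 0.05, 0 by DESeq2), where 0.0674% of all genes were called. Lipc and Pnpla3 lay below vehicle without overlap, and 9.59% of all genes did not overlap, 4.56% above and 5.03% below. The members' median log2 difference was 0.09, against -0.008 over all genes. In dHSC livers 0 members were called by edgeR (4 at an unadjusted p under 0.05, 0 by DESeq2), where 2.55% of all genes were called, 1.71% higher and 0.843% lower. There Lpl lay above vehicle and Lipc and Mttp below it, against 17.3% of all genes that did not overlap, 9.61% above and 7.7% below. The members' median was -0.20, against -0.004 over all genes.

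**Figure D2:**
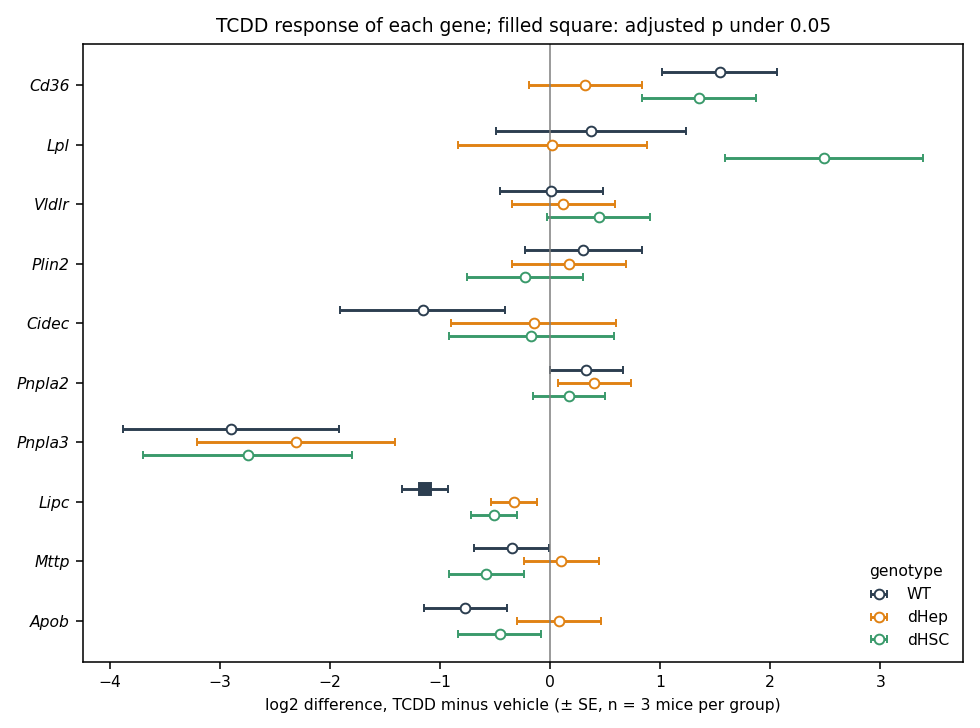
Log2 difference between TCDD and vehicle for each gene in the 3 genotypes, with the standard error from the fit over all genes (n = 3 mice per group). The filled square marks Lipc in WT livers (-1.14 ± 0.21), the 1 value that passed at an adjusted p under 0.05.

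Cd36 (ENSMUSG00000002944, chromosome 5, 17781690 to 17888801, minus strand) is the scavenger receptor and fatty acid translocase through which hepatocytes and macrophages take up long-chain fatty acids and oxidised lipoproteins. It had 448.4, 377.5 and 437.1 CPM in WT TCDD livers, against 187.0, 75.0 and 171.4 CPM in WT vehicle livers. All 3 TCDD livers lay above all 3 vehicle livers, and the lowest of them was 2 times the highest vehicle liver or more. The log2 difference was 1.54 ± 0.52 (SE, n = 3 each, adjusted p = 0.105), a 2.91-fold higher level that did not pass over all genes.

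In dHSC TCDD livers Cd36 had 468.8, 502.1 and 105.2 CPM, against 150.0, 170.9 and 100.7 CPM in dHSC vehicle livers. Replicates 6 and 12 lay above all WT TCDD livers, while replicate 18, one of the 5 outlying libraries, lay within the vehicle range, so the groups overlapped (log2 difference 1.35 ± 0.52, adjusted p = 0.252). In dHep TCDD livers it had 154.4, 225.9 and 93.5 CPM, against 191.4, 80.95 and 106.3 CPM in dHep vehicle livers. These groups overlapped widely (log2 difference 0.32 ± 0.51, adjusted p = 0.937). The dHep and WT responses differed by -1.22 ± 0.72 on the log2 scale (dHep minus WT, adjusted p = 0.722), which did not pass.

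Cd36 was between 80.95 and 106.3 CPM in all 5 outlying libraries, whatever their treatment, and between 75.0 and 502.1 CPM in the other 13. The outlying vehicle livers lay within the range of the other vehicle livers, 75.0 to 191.4 CPM. The 5 held the largest share of counts from other than protein-coding genes, and no correlation of Cd36 with that share was tested. With that share, on the log2 scale, as a covariate in the fit, Cd36 passed in WT (log2 difference 1.68, adjusted p = 0.00129) and in dHSC (1.27, adjusted p = 0.0159). The dHep minus WT difference passed there as well (-1.87, adjusted p = 0.037). The 5 libraries with the largest share are all dHep or dHSC livers, so share and genotype are partly confounded in that difference. Without the 5 libraries it passed in WT (1.55, adjusted p = 0.00985) and not in the other comparisons. Cd36 is also a macrophage gene, and the sum of 12 macrophage markers ran from 603.3 to 1010 CPM in WT TCDD livers against 241.3 to 701.4 CPM in WT vehicle livers. In dHSC the sums overlapped, at 562.8 to 805.6 CPM with TCDD and 553.0 to 806.1 CPM with vehicle. The dHSC TCDD liver highest in Cd36, replicate 12, had 562.8 CPM, and the lowest, replicate 18, had 805.0 CPM. In dHep they also overlapped, at 385.6 to 554.7 CPM with TCDD and 372.3 to 612.5 CPM with vehicle. Of those markers 5 rose in WT and 2, Gpnmb and Itgax, in dHSC, where 3.43% and 1.71% of all genes were called higher. None of the 12 was at 0 in any group, and their part in the Cd36 level was not tested.

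Lpl (ENSMUSG00000015568, chromosome 8, 68880491 to 68907448, plus strand) encodes lipoprotein lipase, which frees fatty acids from chylomicrons and VLDL and is made mainly in fat and muscle, and at low level in adult liver. It had 194.2, 145.3 and 365.1 CPM in dHSC TCDD livers, against 15.5, 37.6 and 72.2 CPM in dHSC vehicle livers. All 3 TCDD livers lay above all 3 vehicle livers. The log2 difference of 2.49 ± 0.90 (SE, n = 3 each, adjusted p = 0.217), a 5.63-fold higher level, did not pass over all genes. The highest value was that of replicate 18, an outlying library.

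In WT TCDD livers Lpl had 107.7, 103.6 and 156.2 CPM, against 225.2, 25.9 and 33.6 CPM in WT vehicle livers. Vehicle replicate 1, the library with adipocyte and muscle markers, was above every WT TCDD liver, and the other vehicle livers were below every one of them. The log2 difference was 0.37 ± 0.86 with that library (adjusted p = 0.935) and 2.04 without it (adjusted p = 0.21). In dHep TCDD livers Lpl had 21.3, 34.8 and 156.2 CPM, against 22.1, 119.1 and 68.5 CPM in dHep vehicle livers, which overlapped (log2 difference 0.02 ± 0.86, adjusted p = 0.999). The dHSC and WT responses differed by 2.12 ± 1.22 (dHSC minus WT, adjusted p = 1.0), and by 0.44 without WT vehicle replicate 1. The highest adipocyte marker sums after WT vehicle replicate 1 were in outlying libraries, 14.5 CPM in a dHep vehicle, 11.5 CPM in a dHSC vehicle and 6.16 CPM in a dHSC TCDD liver, and their part in Lpl was not tested.

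Vldlr (ENSMUSG00000024924, chromosome 19, 27216484 to 27254231, plus strand), the receptor that takes up VLDL, is normally low in liver. It averaged 23.2 ± 13.2 CPM in WT TCDD and 23.1 ± 6.56 CPM in WT vehicle livers (SD, n = 3 each). The averages were 17.4 ± 6.94 CPM in dHep TCDD and 16.1 ± 4.02 CPM in dHep vehicle livers. They were 29.9 ± 18.02 CPM in dHSC TCDD and 22.1 ± 4.94 CPM in dHSC vehicle livers. No neighbouring groups in the order of means were separated. The log2 differences were 0.01 ± 0.47 in WT, 0.12 ± 0.47 in dHep and 0.44 ± 0.47 in dHSC.

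**Figure D3:**
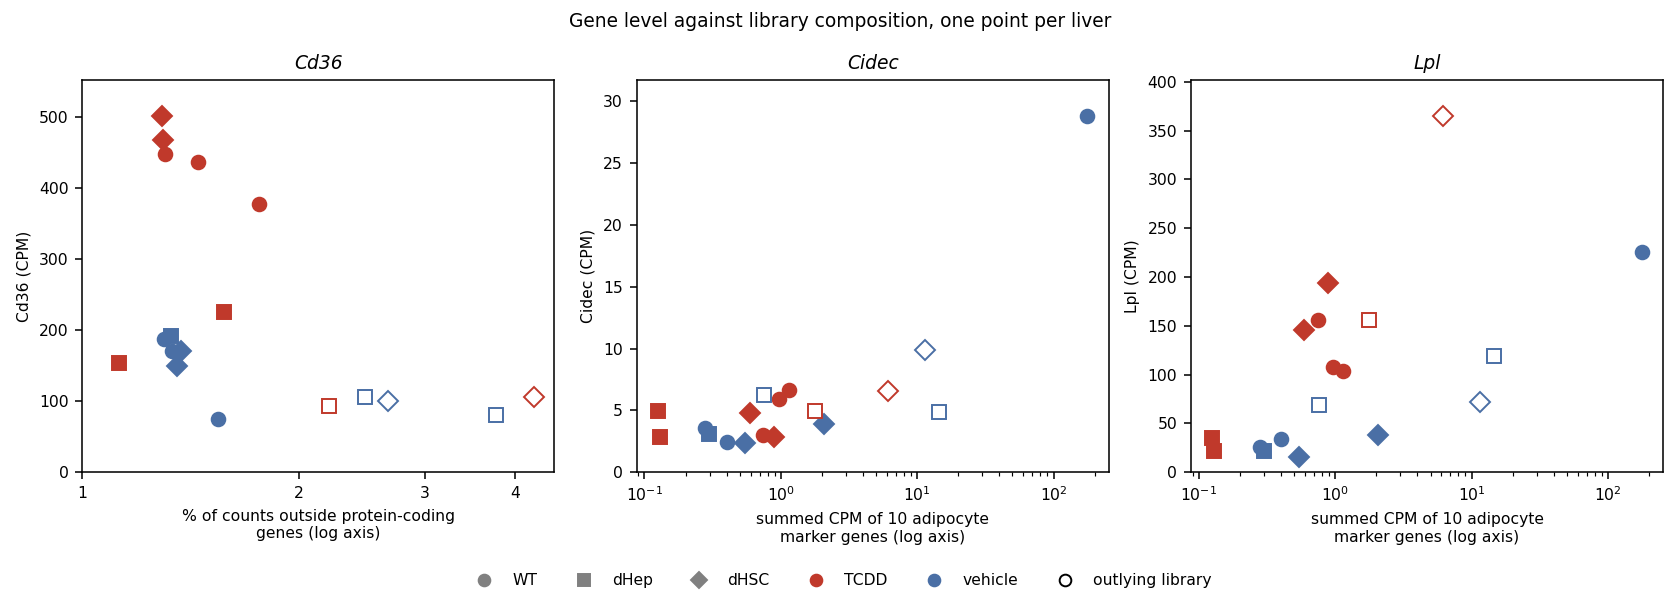
Each point is 1 liver. Cd36 is plotted against the percent of counts from other than protein-coding genes, and Cidec and Lpl against the summed CPM of 10 adipocyte markers, both on log axes. Open symbols, the outlying libraries, all have Cd36 at or under 106.3 CPM, and WT vehicle replicate 1, at 177.0 CPM of adipocyte markers, has the highest Cidec (28.8 CPM).

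Plin2 (ENSMUSG00000028494, chromosome 4, 86648386 to 86670060, minus strand), the perilipin that coats hepatocyte droplets, showed no separated groups. It averaged 469.7 ± 177.7 CPM in WT TCDD and 380.9 ± 85.1 CPM in WT vehicle livers (SD, n = 3 each; log2 difference 0.30 ± 0.53, adjusted p = 0.911). The averages were 391.7 ± 164.8 CPM in dHep TCDD and 348.5 ± 251.5 CPM in dHep vehicle livers, and 302.9 ± 188.4 CPM in dHSC TCDD and 356.5 ± 17.3 CPM in dHSC vehicle livers. Single livers of 1 group differed widely: dHep vehicle replicate 3 had 635.3 CPM and dHep vehicle replicate 9 had 165.8 CPM. The lowest of all was dHSC TCDD replicate 18, at 108.4 CPM.

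Cidec (ENSMUSG00000030278, chromosome 6, 113424634 to 113435760, minus strand), which fuses droplets into larger ones and is high in fat and fatty liver, had 5.95, 6.61 and 2.98 CPM in WT TCDD livers, against 28.8, 3.53 and 2.41 CPM in WT vehicle livers. The 28.8 CPM came from vehicle replicate 1, and every other library of the 18 had 9.85 CPM or less. The log2 difference in WT was -1.16 ± 0.75 with that library (adjusted p = 0.523) and 0.79 without it (adjusted p = 0.574), so its sign rested on 1 mouse. In that library Lep and Adipoq, which mark adipocytes, were detected. The further markers Lipe and Nnat were at 0 in all 6 groups, so they say nothing of this library. The averages elsewhere were 4.26 ± 1.217 CPM in dHep TCDD and 4.74 ± 1.60 CPM in dHep vehicle livers, and 4.74 ± 1.86 CPM in dHSC TCDD and 5.37 ± 3.96 CPM in dHSC vehicle livers (SD, n = 3 each).

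Lipc (ENSMUSG00000032207, chromosome 9, 70798128 to 70952226, minus strand) encodes hepatic lipase, secreted by hepatocytes to hydrolyse the lipids of remnants and HDL. It had 136.7, 153.0 and 141.6 CPM in WT TCDD livers, against 263.5, 383.0 and 301.3 CPM in WT vehicle livers. The 3 TCDD livers lay close together and far below every vehicle liver. Lipc fell by 1.14 on the log2 scale (-1.14 ± 0.21, SE, n = 3 each, adjusted p = 0.00475), a 2.20-fold lower level. The call held under each alternative setting and without each library in turn, with log2 differences from -1.26 to -0.97 and adjusted p up to 0.0325.

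In dHep TCDD livers Lipc had 211.6, 248.0 and 250.9 CPM, against 300.3, 256.5 and 338.4 CPM in dHep vehicle livers. The groups did not overlap, with a gap of a few CPM between the nearest livers (log2 difference -0.33 ± 0.21, adjusted p = 0.805). In dHSC TCDD livers it had 227.6, 218.4 and 188.6 CPM, against 305.1, 273.8 and 321.8 CPM in dHSC vehicle livers, again without overlap (-0.51 ± 0.21, adjusted p = 0.319). Neither passed. All TCDD livers thus lay below all vehicle livers within each of the 3 genotypes, as for 78 of all genes tested (0.526%).

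In the order of group means, Lipc was lowest in WT TCDD livers, at 143.8 ± 8.38 CPM (SD, n = 3 each), below every other liver. It stood at 211.5 ± 20.4 CPM in dHSC TCDD and 236.8 ± 21.9 CPM in dHep TCDD livers, which overlapped each other and lay below all vehicle livers. It was highest at 298.4 ± 41.0 CPM in dHep vehicle, 300.2 ± 24.3 CPM in dHSC vehicle and 315.9 ± 61.1 CPM in WT vehicle livers, which overlapped. The response was smaller by 0.80 ± 0.30 on the log2 scale in dHep than in WT (dHep minus WT, adjusted p = 0.411) and by 0.63 ± 0.30 in dHSC than in WT (adjusted p = 1.0). Neither difference passed over all genes. The 10 hepatocyte markers summed to between 54819 and 96332 CPM in WT TCDD livers, against 100434 to 166264 CPM in WT vehicle livers. Their median log2 difference was -0.74 in WT with 0 called by edgeR. In bulk liver fewer hepatocytes and less RNA per hepatocyte cannot be told apart, and the part of these markers in the Lipc level was not tested. Markers of other cells moved too. The 8 cholangiocyte markers summed to between 224.0 and 291.9 CPM in WT TCDD livers, against 61.4 to 74.0 CPM in WT vehicle livers, and 3 of them rose (Prom1, Spp1 and Epcam). Of 10 stellate cell markers 9 were tested, and Col1a1 and Col3a1 rose, while Lrat was at 0 in every group. Reads over more than 1 gene appear to have been left uncounted, so this 0 alone does not show that Lrat was absent. Of 10 endothelial markers 9 were tested, and Vwf rose and Lyve1 fell. Among all genes tested 3.43% were called higher and 1.95% lower in WT.

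Pnpla2 (ENSMUSG00000025509, chromosome 7, 141455198 to 141460743, plus strand) encodes ATGL, which takes the first fatty acid from droplet triglyceride. It had 121.1, 110.1 and 85.95 CPM in WT TCDD livers, against 123.4, 82.0 and 46.7 CPM in WT vehicle livers (log2 difference 0.33 ± 0.33, adjusted p = 0.767). It averaged 100.2 ± 19.6 CPM in dHep TCDD and 75.8 ± 16.7 CPM in dHep vehicle livers, and 92.7 ± 3.87 CPM in dHSC TCDD and 82.3 ± 28.1 CPM in dHSC vehicle livers (SD, n = 3 each). The ranges overlapped in each genotype, and WT vehicle replicate 1 held the highest value, 123.4 CPM.

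Pnpla3 (ENSMUSG00000041653, chromosome 15, 84167837 to 84187236, plus strand), a droplet protein induced by feeding, had low counts throughout. It had 0.458, 0.0570 and 0.124 CPM in WT TCDD livers (14 counts in all), against 2.47, 0.504 and 2.01 CPM in WT vehicle livers (87 counts in all). The groups did not overlap, but the gap between the nearest livers was small. The log2 difference was -2.90 ± 0.98 (SE, n = 3 each, adjusted p = 0.104). In dHep TCDD livers it had 0.692, 0.753 and 1.02 CPM, against 1.24, 9.52 and 1.51 CPM in dHep vehicle livers, also below without overlap (-2.31 ± 0.90, adjusted p = 0.646). The 9.52 CPM came from dHep vehicle replicate 9, an outlying library, and without it the log2 difference was -0.74. In dHSC TCDD livers it had 0.738, 0.198 and 0.287 CPM, against 3.31, 4.20 and 0.633 CPM in dHSC vehicle livers (-2.75 ± 0.95, adjusted p = 0.183). Here dHSC TCDD replicate 6 lay above dHSC vehicle replicate 17. None of these differences passed, and the dHep minus WT difference was 0.59 ± 1.24 (adjusted p = 0.916), or 2.16 without dHep vehicle replicate 9. In WT it passed without the 5 outlying libraries (adjusted p = 0.0386) and with DESeq2 (adjusted p = 0.0266).

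Mttp (ENSMUSG00000028158, chromosome 3, 138089854 to 138144968, minus strand) encodes the transfer protein that loads lipid onto apolipoprotein B. It had 159.4, 155.1 and 159.3 CPM in WT TCDD livers, against 202.9, 177.9 and 222.4 CPM in WT vehicle livers. In dHSC TCDD livers it had 171.9, 177.9 and 64.8 CPM, against 205.4, 235.6 and 178.9 CPM in dHSC vehicle livers. The TCDD livers lay below the vehicle livers in both genotypes, by about 1 CPM at the nearest in dHSC. The log2 differences were -0.35 ± 0.34 in WT (adjusted p = 0.763) and -0.58 ± 0.34 in dHSC (adjusted p = 0.574). The 64.8 CPM came from dHSC TCDD replicate 18, an outlying library, and without it the dHSC difference was -0.24 (adjusted p = 0.879). In dHep TCDD livers it had 191.8, 182.9 and 111.0 CPM, against 202.1, 107.7 and 143.6 CPM in dHep vehicle livers, which overlapped (0.10 ± 0.34, adjusted p = 0.971).

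Apob (ENSMUSG00000020609, chromosome 12, 7977648 to 8016835, plus strand), the structural protein of VLDL, had 4017, 2908 and 3621 CPM in WT TCDD livers, against 5855, 5865 and 6234 CPM in WT vehicle livers. The groups did not overlap, and the vehicle livers lay close together. The log2 difference was -0.77 ± 0.38 (SE, n = 3 each, adjusted p = 0.336). It passed with the covariate (adjusted p = 0.0357) and without the 5 outlying libraries (adjusted p = 0.0294), neither of which removes a WT liver. In dHep TCDD livers Apob had 5433, 5843 and 3811 CPM, against 6787, 3020 and 4507 CPM in dHep vehicle livers, which overlapped (0.08 ± 0.38, adjusted p = 0.979). In dHSC TCDD livers it had 4690, 4678 and 1894 CPM, against 6208, 5303 and 3951 CPM in dHSC vehicle livers (-0.46 ± 0.38, adjusted p = 0.772). The lowest liver of each deleted group was an outlying library. The dHep minus WT difference was 0.84 ± 0.54 (adjusted p = 0.738).

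In the edgeR fit of all 18 libraries without the covariate, none of the 7 comparisons other than TCDD in WT called a member. The dHep minus WT difference of the response called 0 members (1 at an unadjusted p under 0.05, 0 by DESeq2), against 0.856% of all genes. The dHSC minus WT difference called 0 members and 0 genes in all (233 genes and 0 members at an unadjusted p under 0.05). DESeq2 called 3 genes there, with no member among them. With vehicle, 0 members were called in dHep against WT or dHSC against WT, at either the adjusted or the unadjusted p, and 0 genes in all. Of all genes 1025 and 220 reached an unadjusted p under 0.05, and DESeq2 called 5 and 2. The largest vehicle differences of members were -1.30 ± 0.75 for Cidec and 1.30 ± 0.86 for Pnpla3 in dHep minus WT. In dHSC minus WT they were -1.19 ± 0.87 for Lpl and -1.11 ± 0.75 for Cidec. The Cidec and Lpl values turned sign without WT vehicle replicate 1, to 0.65 for Cidec in dHep minus WT, and to 0.84 for Cidec and 0.48 for Lpl in dHSC minus WT. The Pnpla3 value turned sign without dHep vehicle replicate 9, an outlying library, to -0.28. No member's vehicle groups were separated, against 7.85% and 4.41% of all genes.

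The genes whose log2 levels followed each member most closely were sought among 11823 others over the 18 livers, as a description in which the libraries share treatment, genotype and RNA quality. For Lipc the 3 most alike were Pipox, a peroxisomal oxidase, Il1rap, an interleukin-1 receptor subunit, and Proz, the plasma protein Z. Their correlations (Pearson's r) were 0.949, 0.933 and 0.931, and 0.943, 0.947 and 0.928 over the 13 libraries that are not outlying. Pipox and Il1rap also fell in WT TCDD livers, by 1.17 and 1.25 on the log2 scale. For Cd36 they were Msrb3, a methionine sulfoxide reductase, Igf2r and Josd1, at 0.932, 0.923 and 0.917 (0.945, 0.896 and 0.869 over the 13). Msrb3 rose in WT TCDD livers by 2.28 ± 0.56 (adjusted p = 0.0248) and in dHSC TCDD livers by 2.38 ± 0.57 (adjusted p = 0.0349). For Apob the most alike was Eif4ebp2 at 0.977 (0.972 over the 13), and for Pnpla3 it was Fut8 at 0.893 (0.89 over the 13). For Mttp it was Hspd1 at 0.963 and for Plin2 Psmd11 at 0.889, which came to 0.876 and 0.664 over the 13. The weakest closest match was that of Pnpla2, with Ifrd1 at 0.774.

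Around these members, 80 further genes of lipid handling in 5 lists were examined, of which 71 were tested. In WT TCDD livers 1 rose and 3 fell, a share of the 71 near the 5.38% called among all genes (3.43% higher, 1.95% lower). The intracellular hydrolases Ces3a, Ces3b and Aadac fell, and Hilpda, a droplet protein that inhibits ATGL, rose. The median log2 difference of the 71 was -0.45, against -0.015 over all genes, and 53 were negative. In dHSC TCDD livers the same 3 hydrolases fell and 0 genes rose (median -0.36, 54 negative), where 0.843% of all genes were called lower and 1.71% higher. Of the 71, 0 were called in dHep TCDD livers by edgeR or DESeq2 (1 at an unadjusted p under 0.05; median 0.08, 31 negative), where 0.0674% of all genes were called, so that 0 of 71 is near that share. The 10 hepatocyte markers had medians of -0.74 in WT, 0.16 in dHep and -0.80 in dHSC (log2 difference, 0 called by edgeR in each). Apoa1 and Hnf4a are among both these markers and the 71 genes, so the sets are not separate. The part of the markers in the lists' shift was not tested.

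Ces3a, a carboxylesterase of the endoplasmic reticulum, averaged 48.9 ± 30.3 CPM in WT TCDD and 794.2 ± 277.5 CPM in WT vehicle livers (SD, n = 3 each). The log2 difference was -4.02 ± 0.50 (adjusted p = 0.000166), and the groups did not overlap. It averaged 60.02 ± 17.99 CPM in dHSC TCDD and 834.2 ± 378.0 CPM in dHSC vehicle livers (-3.80 ± 0.50, adjusted p = 0.000584). In dHep livers the averages were 671.6 ± 144.6 CPM with TCDD and 811.6 ± 290.7 CPM with vehicle. The response was less by 3.75 ± 0.65 on the log2 scale in dHep than in WT, and this difference passed (adjusted p = 0.0112), the 1 call among the 71 genes. Without the 5 outlying libraries it was 4.24 (adjusted p = 0.107). Ces3b, a close relative whose reads may be shared with Ces3a, fell by 2.39 in WT (-2.39 ± 0.40, adjusted p = 0.00174) and by 2.10 in dHSC (-2.10 ± 0.39, adjusted p = 0.00732). The dHSC call of Ces3b was lost with only the groups compared (adjusted p = 0.0771) and without the 5 outlying libraries (adjusted p = 0.0889).

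Aadac, a lipid hydrolase of the same compartment, averaged 215.0 ± 52.8 CPM in WT TCDD and 649.7 ± 141.9 CPM in WT vehicle livers (SD, n = 3 each; -1.60 ± 0.31, adjusted p = 0.00532). In dHSC it averaged 249.0 ± 89.2 CPM with TCDD and 598.9 ± 13.5 CPM with vehicle (-1.27 ± 0.30, adjusted p = 0.0354), a call lost without any 1 of dHSC vehicle replicates 5, 11 and 17 or dHSC TCDD replicates 12 and 18, with no filter (adjusted p = 0.0721), with only the groups compared (0.224) and without the 5 outlying libraries (0.138). Hilpda averaged 8.96 ± 5.58 CPM in WT TCDD and 2.44 ± 1.01 CPM in WT vehicle livers (1.88 ± 0.43, adjusted p = 0.0153). That call was lost without WT vehicle replicate 1 (adjusted p = 0.0526) or 13 (0.0774), or WT TCDD replicate 14 (0.12).

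By list, against 5.38% of all genes called in WT (3.43% higher, 1.95% lower), 0 of 18 uptake and plasma lipolysis genes tested were called in WT by edgeR (1 at an unadjusted p under 0.05, Slc27a1), with a median log2 difference of -0.34. Of 12 droplet genes 1 rose (Hilpda; median -0.18). Of 10 intracellular lipases and hydrolases 3 fell (median -0.76), and Ces1d, the major triacylglycerol hydrolase, had -2.04 ± 0.68 (adjusted p = 0.0974). Of 13 lipoprotein assembly genes 0 were called by edgeR (3 at an unadjusted p under 0.05), with a median of -0.46. Apoa1, the main protein of HDL, had -1.88 ± 0.59 (adjusted p = 0.0781). Of 18 transcription factors and coactivators 0 were called by edgeR (7 at an unadjusted p under 0.05), with a median of -0.44, and Cebpa had -1.15 ± 0.38 (adjusted p = 0.098). Among the most abundant genes of these lists, Fabp1, the fatty acid binding protein of hepatocytes, had 0.10 ± 0.64, Apoe -0.62 ± 0.44, the droplet enzyme Hsd17b13 -0.02 ± 0.35 and the hepatocyte factor Hnf4a -0.14 ± 0.29, with overlapping groups. DESeq2, which was given all 55536 identifiers, called 13 of the 71 and 1336 genes in all. That total equals 9.01% of the 14835 genes tested by edgeR, and is not the share of those given to DESeq2. Among the 13 were Slc27a1, Ces1d, Tm6sf2, Apoa1, Srebf1, Cebpa and Onecut1.

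**Figure D4:**
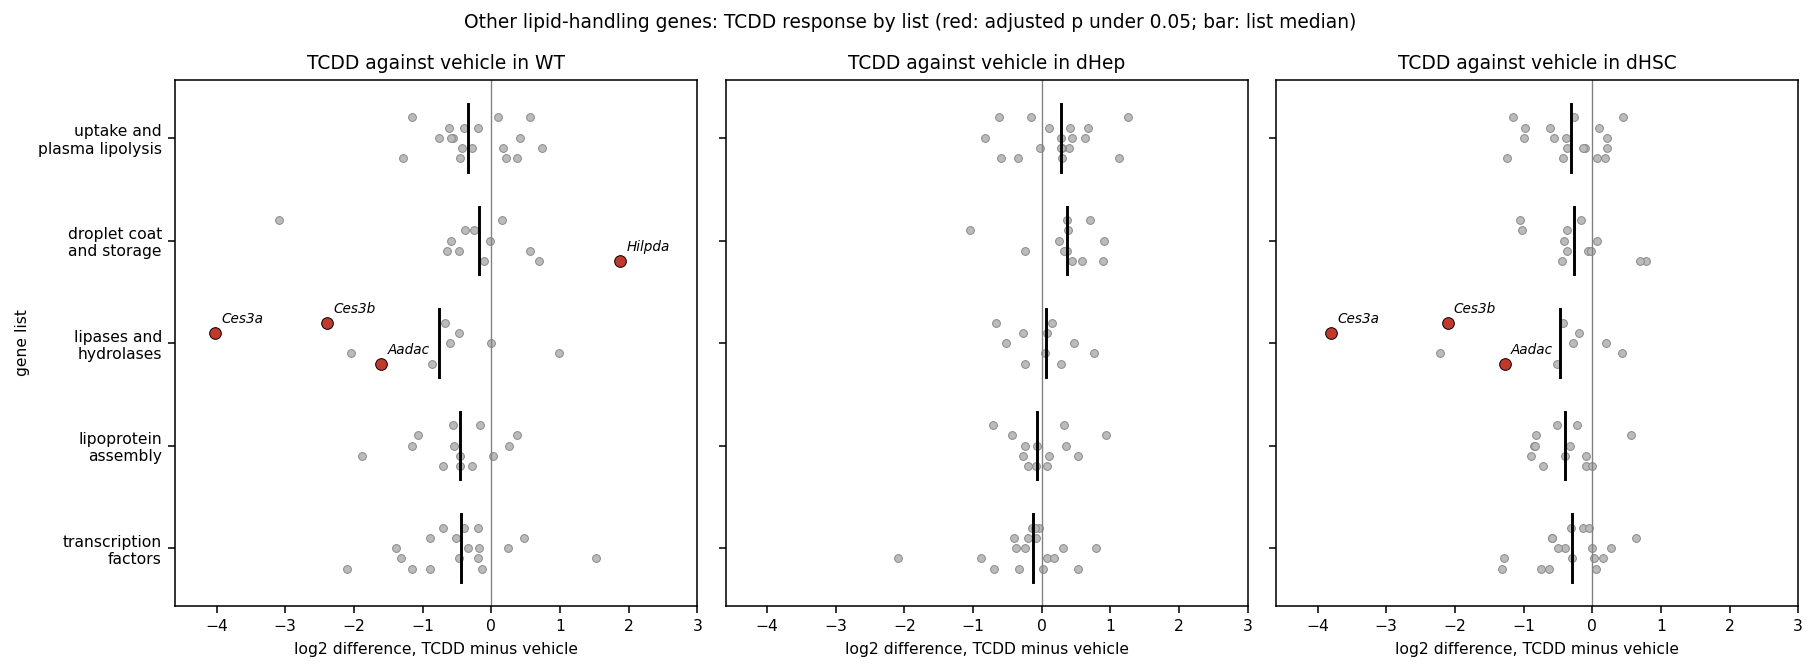
Log2 difference between TCDD and vehicle for 71 further lipid genes in 5 lists, for WT, dHep and dHSC livers. Red points passed at an adjusted p under 0.05 and black bars are list medians. Ces3a lies lowest in WT (-4.02) and in dHSC (-3.80), and in dHep no point passed.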

How the data were processed

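Liver RNA of 18 mice was measured by poly-A RNA-seq. Per the labels' protocols, 10 mg of tissue gave RNA with an integrity number over 6.8. The deposited files hold raw read counts per gene, 1 file per library. The submitters' processing notes list HISAT2 2.1.0, HTSeq 0.11.3, DESeq2 1.22.2, FastQC 0.11.9 and the build GRCm38, and counting settings are not given in the sources used here. All 55536 identifiers matched GENCODE M21, from which symbols and positions were taken. All 1290 protein-coding genes lying wholly inside another gene's span had no counts, against 25.26% of 11798 genes clear of others, so reads over more than 1 gene appear to have been left uncounted.

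From the deposited counts, genes were filtered with filterByExpr (14835 kept), scaled by TMM and fitted over all 18 libraries with 1 mean per group in R 4.3.3. The 7 comparisons were tested by edgeR 4.0.16 (quasi-likelihood), and p-values were adjusted over every tested gene (Benjamini-Hochberg), with a call at an adjusted p under 0.05. The fit was tested on simulated data. CPM are TMM-scaled. Likeness used log2 CPM with a prior count of 2. Totals of 12706490 to 27240877 counts leave Pnpla3 with as few as 1 count in a library.

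Genes set to be named were the 10 members, Ahr, the AHR target genes and the 3 genes most like each member (mean level 1 CPM or more). Of the other lipid genes they were those called and up to 4 more per list, the most abundant. Not all are given above: of the AHR targets only Cyp1a1 is, and the genes most like Lpl, Vldlr and Cidec are left out. Slc27a1, Tm6sf2, Srebf1 and Onecut1 were named after their values were seen. The members and lists were chosen with earlier results of these data known. Alternatives were RLE scaling, no filter, at least 1 CPM in 3 libraries, only the groups compared, a covariate for the log2 share of counts from other than protein-coding genes, leaving out the 5 outlying libraries or each library in turn, and DESeq2 1.42.0. Their use on the other lipid genes was added after seeing the data. Promoter windows came from RefSeq (GRCm38.p6) and matched 9 of 10 members.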

Additional observations from a re-analysis of the deposited data

Results flagged for a closer look

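Ces3a was the 1 gene among the members and the other lipid genes whose TCDD response passed the test of a difference between genotypes. Its log2 difference between TCDD and vehicle was larger by 3.75 ± 0.65 in dHep than in WT (adjusted p = 0.0112, n = 3 mice per group), since it was -0.27 in dHep and -4.02 in WT. The 5 outlying libraries include 3 of the 6 dHep livers, and without them the difference was 4.24 with an adjusted p of 0.107. The part of RNA quality in it was not tested.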

How the results depend on the processing

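With RLE scaling, with no filter, with at least 1 CPM in 3 libraries and without each library in turn, the number of members called did not change in any of the 7 comparisons (1 in WT, 0 elsewhere). For TCDD in WT 2 members were called with only the groups compared (Cd36, Lipc), 3 with the covariate (Cd36, Apob, Lipc), 4 without the 5 outlying libraries (Cd36, Apob, Pnpla3, Lipc) and 3 with DESeq2 (Cd36, Pnpla3, Lipc). With the covariate 1 member, Cd36, was called in dHSC and 1, also Cd36, in the dHep minus WT difference. Calls over all genes also rose in WT and dHSC with the covariate and with DESeq2, by the numbers in the next paragraph. Whether members or other lipid genes gained more calls than genes at large was not tested. Of the other lipid genes, WT TCDD called 15 with the covariate, 12 without the 5 libraries and 13 with DESeq2, against 4. In dHSC 1 was called with only the groups compared and 6 with the covariate, against 3, and the dHep minus WT difference called 0 without the 5 libraries.

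Among all genes, WT called 798, or 1926 with the covariate, 1584 without the 5 libraries, 1336 with DESeq2 and 445 to 921 without 1 library. dHep called 10, or 19 without the filter, 0 with only the groups compared, 41 with the covariate, 0 without the 5, 84 with DESeq2 and 0 to 11 without 1 library. dHSC called 379, or 75 with only the groups compared, 792 with the covariate, 214 without the 5, 716 with DESeq2 and 169 to 297 without 1 library. The dHep minus WT difference called 127, or 227 with the covariate, 19 without the 5, 288 with DESeq2 and 51 to 130 without 1 library. DESeq2 called 3 for dHSC minus WT, and 5 (dHep) and 2 (dHSC) against WT in vehicle, where edgeR called 0. The cause of these changes was not tested.

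No paired analysis was possible because no replicate number occurs in more than 1 group and the labels name no shared litter, day or batch. Where leaving out the 5 libraries leaves dHep vehicle with 1 liver, that liver is assumed to vary like the other groups. With 3 mice per group and within-group SDs of log2 CPM up to 1.19, differences such as that of Lpl may miss the threshold, and Pnpla3 rests on few counts.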
